A study of Mus musculus with 14 samples.

Results

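The cytosolic ribosomal protein genes and their paralogs were followed in 14 CT26 tumors. Genes were taken by symbol: Rpl or Rps followed by a digit, with the usual endings, plus Rplp0, Rplp1, Rplp2, Rpsa and Fau, and without pseudogenes and kinases. This gave 85 of the 53801 genes in the files, 52 of the large and 33 of the small subunit. Of the 85 genes, 78 encode the canonical proteins (46 large, 32 small) and 7 are paralogs, namely Rpl3l, Rpl7l1, Rpl10l, Rpl22l1, Rpl36al, Rpl39l and Rps27l. Another 6 genes with matching symbols are annotated as pseudogenes and are not members, of which Rps4l is described once beside the paralogs. The genes lie on 20 chromosomes of the mm10 build, and their transcripts are short, with a mean length of 345 to 2606 bases and a median of 728.

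CT26 is a mouse colon carcinoma line of the Balb/c strain, and the cells implanted here carried a library of DNA barcodes. Female mice aged 6 to 8 weeks received 250000 cells under the skin of each flank and, from day 7, 5 intraperitoneal injections of 200 µg of antibody every 3 days, either control IgG (5 tumors) or anti-PD-1, which blocks an inhibitory receptor of T cells. The tumors were harvested 3 days after the last injection. Anti-PD-1 tumors were divided after treatment, by their size against the control median, into responders (5 tumors) and non-responders (4 tumors), so that the 2 groups share strain, cells and antibody and differ in an outcome rather than in an assigned condition. The tumors come from 11 mice, 3 of which gave 2 tumors each, and a tumor is named by its mouse number and flank (14L, left flank of mouse 14). RNA was taken from whole tumors, so that fewer cells of a type and less RNA per cell cannot be told apart.

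Each ribosome holds 1 copy of nearly every ribosomal protein, and cells therefore make these proteins in step. The small subunit reads the mRNA, and the large subunit joins the amino acids and releases the chain through its exit tunnel. Most ribosomal protein mRNAs begin with a C followed by a run of pyrimidines, the terminal oligopyrimidine (TOP) motif, through which mTOR signaling controls their translation, and Myc is known to raise their transcription. A few proteins have a paralog that can take their place in the ribosome in some tissues.

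The start sites of the 9 canonical genes with a RefSeq window that were among the 5 of smallest p or of largest fold in a responder comparison, and those of 2 paralog pairs, are given here because the TOP motif lies at the start of the mRNA. Of these 13 sites, 8 hold a pyrimidine run somewhere in the 30 bases shown and 5 do not. Only the first run of a line is marked. Counted from the start, the marked runs begin at base 3 (Rpl12, Rpl13a), 4 (Rpl22l1), 8 (Rps7) and 9 (Rps12). Those of Rps18 and Rps27 begin before the start, at base -8, and that of Rps27l at -10. No marked run begins at the start base itself. In Rps18 and Rps27 a later, unmarked run crosses the start, so that a C at the start is followed by at least 4 pyrimidines. Rpl12 and Rps27l also hold a later run, after the start. RefSeq start sites (GRCm38.p6) were given for 65 of the 85 genes, in 77 windows. Each line gives 10 bases before the start and 20 from the start on, 5′ to 3′ on the gene's strand, and capitals mark the first C followed by at least 4 pyrimidines.
Rpl12 (chr2:32961702-32961731, plus strand): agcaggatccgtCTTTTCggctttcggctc
Rpl13a (chr7:45128726-45128755, minus strand): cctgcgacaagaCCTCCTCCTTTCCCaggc
Rpl37a (chr1:72711250-72711279, plus strand): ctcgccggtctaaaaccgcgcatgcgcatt
Rpl9 (chr5:65391412-65391441, minus strand): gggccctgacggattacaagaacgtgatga
Rps12 (chr10:23787190-23787219, minus strand): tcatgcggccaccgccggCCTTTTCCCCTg
Rps7 (chr12:28635934-28635963, minus strand): cggtttccacccacctaCTTCCgctgtccc
Rps18 (chr17:33955646-33955675, minus strand): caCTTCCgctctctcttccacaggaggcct
Rps4x (chrX:102189372-102189401, minus strand): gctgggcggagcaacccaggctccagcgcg
Rps28 (chr17:33824543-33824572, minus strand): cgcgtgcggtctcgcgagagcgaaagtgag
Rpl22 (chr4:152325716-152325745, plus strand): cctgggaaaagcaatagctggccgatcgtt
Rpl22l1 (chr3:28805498-28805527, plus strand): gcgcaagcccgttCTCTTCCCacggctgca
Rps27 (chr3:90213629-90213658, minus strand): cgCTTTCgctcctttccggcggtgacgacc
Rps27l (chr9:66946076-66946105, plus strand): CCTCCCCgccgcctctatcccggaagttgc
A C at the annotated start followed by at least 4 pyrimidines stood in 14 of 68 windows of canonical genes (20.6%), in 0 of the 9 paralog windows and in 2.51% of all 32851 windows. Within the 30 bases shown, such a run was present in 41 of the 68 windows (60.3%) against 35.8% of all windows, and in 6 of the 9 of paralogs. The letters CCGGAAG, on either strand and anywhere from 250 bases before to 50 after the start, were found in 36.8% of canonical windows and in 8.86% of all windows. On the opposite strand these letters end a pyrimidine run, so the 2 counts are not separate. The letters TATAAA beginning 40 to 20 bases before the start were in 0 of the 68 windows and in 1.99% of all. The RefSeq start shown lay 336 bases from the annotated 5′ end of the gene for Rps18, 153 for Rpl12, 72 for Rpl22l1 and 66 for Rps12. Annotated starts can lie away from the start used in a tumor, and a match is a description only.

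Before the comparisons, the tumors were examined for differences outside the groups. Totals ran from 33237744 to 48481461 estimated counts per tumor, so that counting error was small for all genes but Rpl3l and Rpl10l. The non-responder tumor 33R stood apart. Its log2 CPM (counts scaled to library size, with TMM factors) changed by -0.232 per doubling of gene length relative to the mean of the tumors, against -0.071 to 0.0597 in the other 13 tumors. The median effective length of the canonical genes is 453 bases, and that of all 16287 genes tested is 2070. Each colon and epithelial marker was detected in some tumor of every group, with Krt20 at 202 to 489 CPM. Vil1, a marker of gut epithelium, was at 0.174 CPM or less in every tumor, and its lowest control IgG and responder values were 0. Values without 33R stand beside the named results that lost their call without it.

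The 85 genes together took 6.79 to 13.8% of the counts and 19.9 to 31.7% of the TPM (transcript abundance per length, with the same total in every tumor) in a tumor. As a share of TPM they held 24.5, 27.0, 26.6, 24.5 and 26.3% in the control IgG tumors 14L, 14R, 16R, 17R and 20R. The responder tumors 24L, 26R, 30L, 30R and 35L held 19.9, 22.3, 22.9, 20.8 and 22.0%. All 5 responders lay below all 9 other tumors. The non-responder tumors 29L, 32R and 33L, at 24.9, 25.3 and 24.0%, lay near the range of the control tumors, and 33R was above every tumor at 31.7%. The mean was 25.8% ± 1.16 (SD, n = 5) in control IgG tumors, 21.6% ± 1.21 (SD, n = 5) in responders and 26.5% ± 3.52 (SD, n = 4) in non-responders, or 24.7% ± 0.666 (SD, n = 3) without 33R. As a share of counts the order was the same, with 9.43% ± 0.678 in control IgG tumors, 7.51% ± 0.534 in responders and 10.2% ± 2.43 in non-responders, or 8.99% ± 0.438 without 33R. These shares are descriptions and were not tested.

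**Figure D1:**
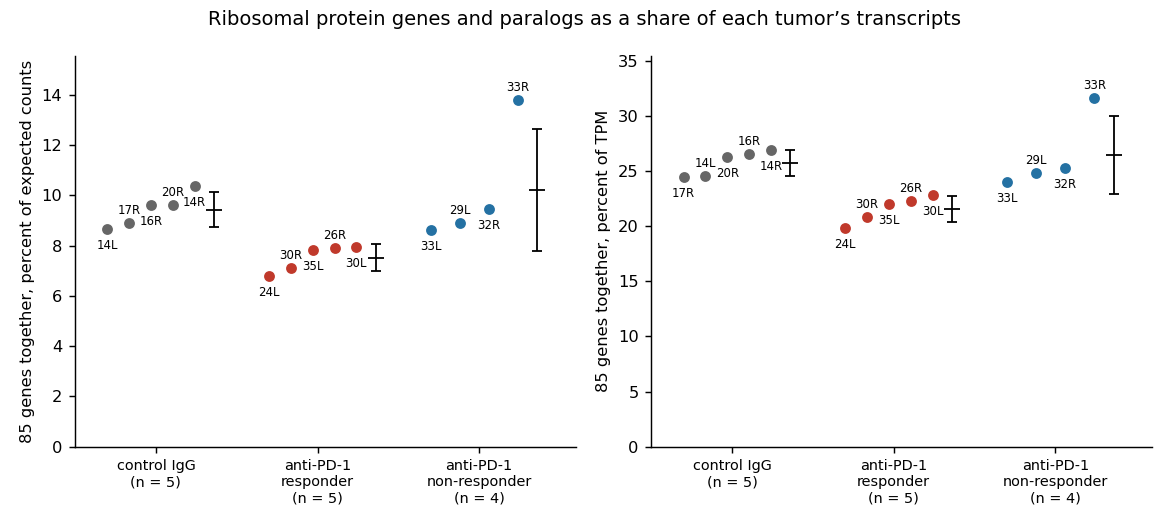
Share of the 85 ribosomal protein genes and paralogs in the estimated counts (left) and in the TPM (right) of each tumor, in percent. Points are tumors, and the bar beside each group is the mean ± SD. On both scales the 5 responder tumors lie below all others, and 33R, at 13.8% of counts and 31.7% of TPM, lies above all others.

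The 2 subunits moved together. The mean log2 CPM of the 46 canonical large subunit genes was 9.95 ± 0.121 in control IgG tumors, 9.58 ± 0.119 in responders and 10.06 ± 0.332 in non-responders. The 32 small subunit genes gave 9.89 ± 0.132, 9.49 ± 0.123 and 10.02 ± 0.39. The responder minus non-responder difference of these means was -0.479 for large and -0.525 for small subunit genes, on the log2 scale. Without 33R the non-responder means were 9.89 ± 0.0957 and 9.83 ± 0.0979, and the differences were -0.318 and -0.335. In all tumors but 33R the large minus small difference of these means was above zero, from 0.0267 in 26R to 0.11 in 35L, and in 33R it was -0.0505. On mean log2(TPM + 1) of the same genes the large minus small difference was below zero in every tumor, from -0.303 in 33R to -0.134 in 35L. The TPM of the 52 large and 33 small subunit members, paralogs included, was also summed, so that the large sum holds more genes. The large to small ratio of these sums was 1.22 ± 0.0141 in control IgG tumors, 1.24 ± 0.019 in responders and 1.22 ± 0.0288 in non-responders. The ranges of this ratio overlapped between all groups.

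Single genes kept close to the family. Over the 14 tumors the highest CPM of a canonical gene was 1.42 to 4.92 times its lowest, with a median of 2.22, and on TPM the ratio was 1.21 to 3.41 with a median of 1.51. The tumor with the lowest CPM was a responder for 78 of 78 canonical genes, namely 30R for 40 genes and 24L for 33. On TPM it was a responder for 76 of 78. The highest CPM was in 33R for 76 genes, and on TPM for 51. Relative to the mean of the canonical genes in the same tumor, Rpl24, a large subunit protein, varied least, with an SD of 0.04 on the log2 scale over the 14 tumors, and Rpsa, of the small subunit, had an SD of 0.049. At the other end stood Rps18 with 0.28 and Rps14 with 0.263, both of the small subunit. Rpl24, Rpsa, Rps18 and Rps14 were picked here by this spread, after their values were seen.

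Both tumors of 1 mouse also differed from each other. In mouse 14 all 78 canonical genes were higher in the right tumor than in the left by log2 CPM, with a median difference of 0.35. In mouse 30 only 1 gene was higher on the right, with a median of -0.28, and in mouse 33 all 78 were, with a median of 0.77. On log2(TPM + 1) these medians were 0.12, -0.14 and 0.3.

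**Figure D2:**
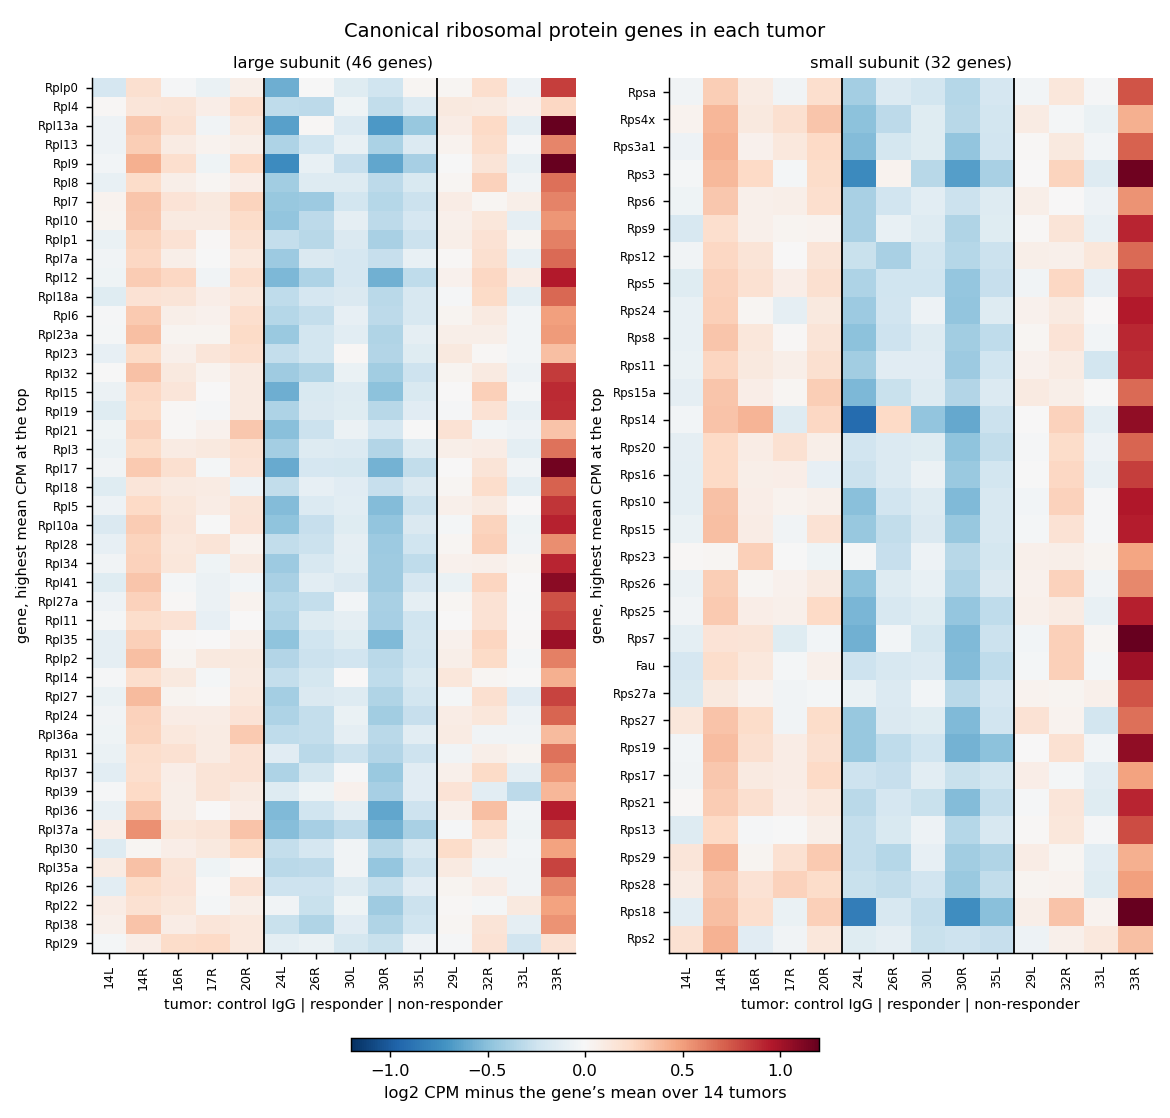
Log2 CPM of each canonical gene in each tumor, minus the gene's mean over the 14 tumors, with large subunit genes on the left and small subunit genes on the right, ordered by mean CPM. Columns are tumors in the order control IgG, responder, non-responder. The responder columns are blue for most genes, deepest in 24L and 30R, and the column of 33R is the reddest for 76 of 78 genes.

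The first comparison asked how tumors that ended small under anti-PD-1 differ from those that did not. Ribosomal protein genes were lower in responders than in non-responders. Of the 84 members tested, 62 were lower in responders (edgeR quasi-likelihood test, Benjamini-Hochberg adjusted p under 0.05 over 16287 genes) and 0 were higher. Across all genes tested, 4.82% were called lower. All 84 estimates were below zero, and their median log2 fold change was -0.52, while that of all genes was 0.01. Both subunits took part, with 37 of 46 canonical large subunit genes and 24 of 32 small subunit genes called, and medians of -0.49 and -0.53. The values of the 5 responders lay below those of all 4 non-responders for 61 members by log2 CPM (background 6.04%) and for 40 by TPM (background 1.38%). Rpl10l, which is known from testis, was listed at 0 in all 14 tumors and was not tested. The number of calls changed with the settings. It was 3 when only the 2 groups entered the fit (background 1.27%) and 22 with no filter on low counts (background 1.53%). In the reported edgeR fit it was 0 at an adjusted p under 0.01. DESeq2 called 77 members lower, and 1361 of all 16287 genes, with 49 members at an adjusted p under 0.01. Limma-voom called 44, and 659 of all genes. Upper quartile scaling gave 49 and TMM set without the members 50, with 692 and 675 of all genes lower.

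The number called depended on single tumors, 33R among them. Without 33R it was 12 in place of 62 (background 1.81%), and the median fold change of the members became -0.29, with no member called higher. It was also low without the responders 24L (6) and 30R (7), the non-responder 32R (12) and the responder 35L (30). Calls over the whole table fell too, with 226, 270, 246 and 511 of all 16287 genes lower in these fits, against 785 with all tumors. The median of the members stayed between -0.59 and -0.49 whichever tumor other than 33R was left out. Leaving out control tumors, which enter through the shared spread, gave 34 without 17R and 39 without 20R, and leaving out 26R gave 38. Of all genes, 521, 570 and 627 were called lower in these fits. With 1 tumor per mouse, which leaves out 14R, 30R and 33R together, 8 members were called (background 1.38%) with a median of -0.26. With mouse as a random effect in limma-voom, 78 were called (background 9.15%). On log2(TPM + 1), limma called 20 members lower (background 1.17%) with a median of -0.23, and without 33R it called 5 (background 0.614%). On that scale the median of all genes was itself 0.17, and the members stood at -0.4 relative to it. With an offset for gene length 16 members were called (background 4.25%), with a median of -0.29.

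In the large subunit, Rpl12, a protein at the base of the stalk that receives elongation factors, was among the genes with the smallest p. It measured 1051, 1185, 1328, 1025 and 1238 CPM in the responders 24L, 26R, 30L, 30R and 35L, and 1585, 1821, 1622 and 2952 CPM in the non-responders 29L, 32R, 33L and 33R. The groups did not overlap, and 33R was far above the rest. Rpl12 differed by -0.78 ± 0.16 (log2 fold change ± SE, edgeR adjusted p = 0.014), and by -0.51 without 33R (adjusted p = 0.0243). The other stalk genes Rplp1 and Rplp2 were lower by -0.52 ± 0.11 and -0.52 ± 0.12 (edgeR adjusted p = 0.0151 and 0.0188).

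Rplp0, which anchors the stalk and is the most abundant member by CPM, did not pass. It read 2002, 2989, 2709, 2540 and 3044 CPM in the responders and 3054, 3445, 2864 and 5322 CPM in the non-responders. The 2 groups overlapped, since 33L lay below 26R and 35L. Its log2 fold change was -0.47 ± 0.17 (edgeR adjusted p = 0.092).

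Among genes of the particle that holds the smallest ribosomal RNA and, when free, binds Mdm2, Rpl5 was lower by -0.61 ± 0.16 (edgeR adjusted p = 0.0279) and Rpl11 by -0.54 ± 0.15 (adjusted p = 0.0349). Both calls were lost without 33R, where Rpl5 was at -0.35 (adjusted p = 0.0566) and Rpl11 at -0.3 (adjusted p = 0.0758). Rpl23, which also binds Mdm2, was at -0.32 ± 0.1 (adjusted p = 0.0633). Around the exit tunnel 5 of 6 genes were called, against 73.8% of the members tested and 4.82% of all genes. Without 33R, 2 of 6 were called (background 1.81%). Rpl4, whose loop lines the tunnel, had one of the smallest errors, with 2062, 2040, 2450, 2071 and 2260 CPM in responders and 2758, 2736, 2634 and 3020 CPM in non-responders. Even the highest responder lay below the lowest non-responder, and 33R was only slightly above the others here. Rpl4 differed by -0.36 ± 0.08 on counts (edgeR adjusted p = 0.0159), but by -0.1 on log2(TPM + 1) (limma adjusted p = 0.349). The tunnel protein Rpl39 was not called, at -0.19 ± 0.13, and its estimate on log2(TPM + 1) was 0.06.

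Of the other large subunit genes, Rpl7 had the smallest p of all members, with -0.55 ± 0.11 (edgeR adjusted p = 0.0138), and Rpl37a had -0.7 ± 0.15 (adjusted p = 0.0155). Without 33R they were at -0.38 and -0.46 and kept their calls (adjusted p = 0.0249 and 0.0303). Rpl9 and Rpl13a had larger differences with larger errors, -0.87 ± 0.24 and -0.82 ± 0.23. Both lost their call without 33R, where they were at -0.42 and -0.43. Rpl29 had the estimate nearest zero, at -0.18 ± 0.09, and was picked here for that value.

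In the small subunit, Rps18 of the head showed the largest difference. It had 118.6, 185.4, 172.8, 126.3 and 149.4 CPM in the responders and 221.5, 268.2, 217.7 and 583.2 CPM in the non-responders. Every responder was below every non-responder, and 33R lay far above the other non-responders. The difference was -1.1 ± 0.25 (edgeR adjusted p = 0.019), and -0.63 without 33R (adjusted p = 0.0361). Rps12 was lower by -0.55 ± 0.12 (adjusted p = 0.0145). Rps19, mutated in Diamond-Blackfan anemia, was lower by -0.79 ± 0.19 (adjusted p = 0.0211), and by -0.45 without 33R (adjusted p = 0.0266).

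Rps7, another gene mutated in that disease, differed by -0.82 ± 0.23 (adjusted p = 0.0383), and by -0.39 without 33R (adjusted p = 0.09). At the mRNA entry, Rps3 was lower by -0.81 ± 0.23 (edgeR adjusted p = 0.0414), and by -0.43 without 33R (adjusted p = 0.145). Rps2 was at 42.4 to 64 TPM only, while its pseudogene Rps2-ps10 was at 3997 to 5083 TPM, and Rpl3 at 1021 to 1426 TPM stood beside Rpl3-ps1 at 1112 to 1745 TPM. Reads of such near-identical copies can be split between them, and the levels of Rps2 and Rpl3 are uncertain. Of the fusions with ubiquitin or a ubiquitin-like protein, Fau was called at -0.67 ± 0.18 (adjusted p = 0.0338) but not without 33R, at -0.35 (adjusted p = 0.0686). Rps27a, at -0.42 ± 0.14 (adjusted p = 0.0645), was not called.

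The second comparison set responders against control IgG tumors. Here 24 of 84 members were lower in responders and 0 were higher, against 5.3% of all genes called lower. Again all 84 estimates were below zero, with a median of -0.38, while all genes had a median of -0.01. The calls took in 15 of 46 canonical large and 9 of 32 small subunit genes, with medians of -0.37 and -0.4. Responders lay below all control IgG tumors for 55 members by log2 CPM (background 6.72%) and for 41 by TPM (background 2.39%). This comparison includes no reading of 33R, but the fit shares 1 estimate of the spread over the groups. Without 33R, 72 members were called (background 9.41%), with the median at -0.37. Without 20R or 24L the count was 7, without 30R 8, without 14R 9, and between 11 and 16 without 16R, 26R, 35L, 17R or 32R. The median stayed between -0.39 and -0.32 in each of these fits. Of all 16287 genes, 418 were called lower without 20R, 443 without 24L, 495 without 30R and 676 without 14R. The rest of these fits gave 572 to 724, against 863 with all tumors. With 1 tumor per mouse 45 were called (background 7.81%), with mouse as a random effect 49 (background 7.82%), with only the 2 groups in the fit 67 (background 8.39%), with no filter 9 (background 2.08%) and at an adjusted p under 0.01, 6. On log2(TPM + 1) limma called 24 (background 1.87%), or 44 without 33R (background 3.33%), with a median of -0.24. With the length offset 20 were called (background 8.06%).

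Rps28, a small protein at the mRNA exit, had the smallest p. Its CPM was 353.3, 415.1, 372.8, 400.3 and 383.5 in the control IgG tumors 14L, 14R, 16R, 17R and 20R and 274.3, 269.1, 282.3, 242 and 269 in the responders. The groups were well apart, with a gap between 30L and 14L. It was lower by -0.53 ± 0.1 (edgeR adjusted p = 0.00491) and kept its call whichever of the 14 tumors was left out (14 fits). Rps29 and Rps4x, also of the small subunit, each gave -0.52 ± 0.11 (adjusted p = 0.00643 and 0.00693). In the large subunit Rpl7 was lower by -0.53 ± 0.11 (adjusted p = 0.00665).

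Rpl37a, a small zinc-binding protein of the large subunit, had the largest difference among called members. Control IgG tumors read 534.2, 737.9, 557, 562.5 and 642.2 CPM, and responders 355.1, 382.7, 407.8, 341.8 and 385 CPM. No responder reached the lowest control tumor. The change was -0.7 ± 0.15 (edgeR adjusted p = 0.00701), and it was -0.55 on log2(TPM + 1) (limma adjusted p = 0.002). Rps18 and Rpl9 had similar estimates, -0.63 ± 0.24 and -0.58 ± 0.23, and did not pass in this comparison (adjusted p = 0.1 and 0.116), nor did Rps27a at -0.14 ± 0.13 or Rplp0 at -0.17 ± 0.16.

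By role, 3 of 4 stalk genes, 2 of 6 genes of the exit tunnel, 0 of 3 Mdm2-binding genes and 0 of 5 genes of the head and mRNA path were called against control IgG, where 28.6% of the members tested and 5.3% of all genes were called lower. Without 33R these counts were 3 of 4, 5 of 6, 3 of 3 and 5 of 5. In that fit 72 of the 84 members and 9.41% of all genes were called lower. With so few genes in a role, differences between roles were not tested. The Mdm2-binding genes Rpl5, Rpl11 and Rpl23 were at -0.42, -0.31 and -0.31 (edgeR adjusted p = 0.0748, 0.161 and 0.0511), and a missed threshold does not show equal levels. Rps6, the substrate of the ribosomal S6 kinases, was just inside at -0.36 ± 0.11 (adjusted p = 0.0491).

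**Figure D3:**
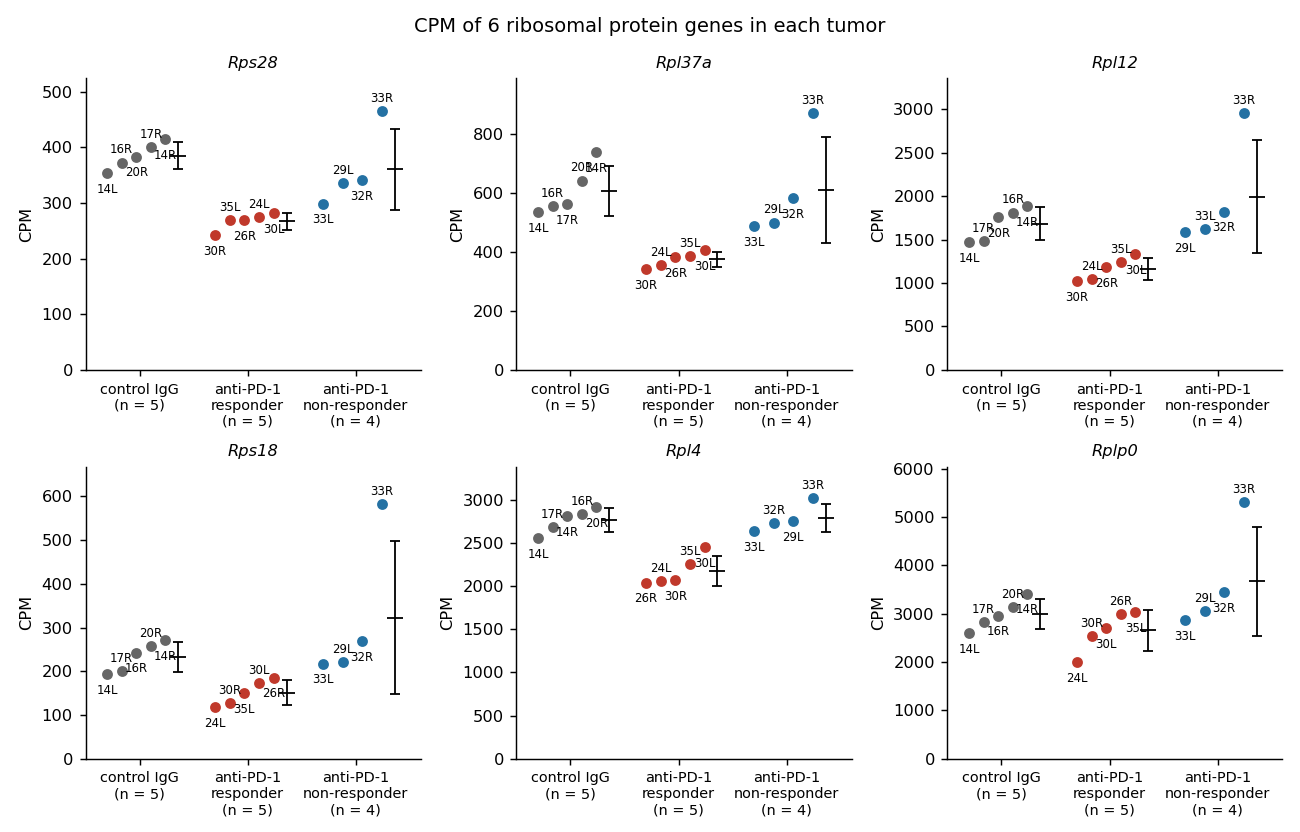
CPM of Rps28, Rpl37a, Rpl12, Rps18, Rpl4 and Rplp0 in each tumor, with the mean ± SD of each group as a bar. For all but Rplp0 the 5 responders lie below every control IgG and non-responder tumor, and 33R is the highest tumor in each panel.

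Non-responders and control IgG tumors, the third comparison, gave no calls. EdgeR, DESeq2 and limma-voom each called 0 of 84 members, edgeR called 0% of all genes, and 1 member and 758 of all genes had an unadjusted p under 0.05. The member estimates had a median of 0.14, with 9 of 84 below zero. The smallest p was that of Rps7, at 0.5 ± 0.23 (edgeR adjusted p = 0.931), followed by Rps27a at 0.27 ± 0.14, Rpl35 at 0.34 ± 0.18, Fau at 0.34 ± 0.18 and Rpl41 at 0.37 ± 0.19 (each with adjusted p = 0.931). Without 33R these 5 estimates were 0.07, 0.05, 0.04, 0.04 and 0.03, and the median of the members turned to -0.07. Within the non-responders, 33R exceeded the mean of the other 3 tumors for 78 of 78 canonical genes on log2 CPM, with a median of 0.67. On log2(TPM + 1) it did so for 72 of 78, with a median of 0.27, where the median of all genes was -0.24.

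**Figure D4:**
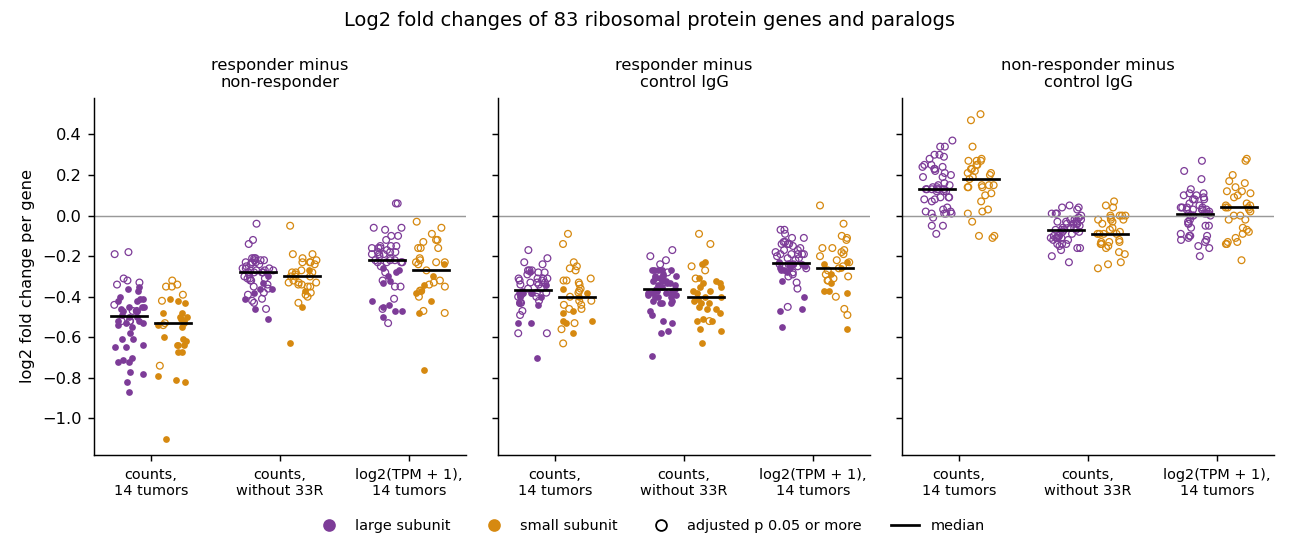
Log2 fold change of 83 genes (those tested, without Rpl3l) in the 3 comparisons, from counts, from counts without 33R and from log2(TPM + 1). Filled points have an adjusted p under 0.05, and black lines are medians. Large and small subunit genes overlap throughout, the responder comparisons lie below zero for nearly all genes, and the non-responder medians on counts move from above to below zero without 33R.

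The paralogs were compared through their ratio to the canonical gene, per length, on log2((TPM + 0.1)/(TPM + 0.1)), with exact two-sided permutation tests. Over 7 pairs and 3 comparisons, 21 tests, the smallest p that 5 against 5 tumors can give is 0.00794. The pair of Rpl10l was not tested, since it was listed at 0, and the seventh pair is that of Rps4l, which is no member. Of the 7 pairs, 4 (3 of the 6 with a member paralog, and that of Rps4l) had a ratio that differed in at least 1 comparison at a Benjamini-Hochberg adjusted p of 0.0476. That value needs 7 tests at a p of 0.0159 or less together. None was called after any 1 tumor was left out, with the tumors of a mouse averaged, or on counts in place of TPM. Leaving out a control IgG or responder tumor raised the smallest p to 0.0159. The loss of calls in those fits is therefore partly set by the number of tumors and does not measure how stable the ratios are. With mice averaged the smallest p was 0.0286, which the adjustment over 21 tests cannot bring under the threshold.

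Rpl22l1 stands in for Rpl22, an RNA-binding protein of the large subunit, which is known to restrain its paralog. Rpl22l1 was 41.2, 44.6, 43.3, 45.9 and 43.6% of the pair's TPM in control IgG tumors and 35.8, 43.2, 40.1, 35.1 and 34.5% in the responders 24L, 26R, 30L, 30R and 35L. The ranges overlapped, with 26R inside the control range and 24L, 30R and 35L well below it. The log2 ratio was lower by -0.36 (exact permutation test, adjusted p = 0.0476, n = 5 and 5). Non-responders held 43.7, 41.8, 38.4 and 47.3%, and responders differed from them by -0.31 (exact permutation test, adjusted p = 0.233). The CPM of Rpl22l1 itself was lower in responders than in non-responders by -0.71 ± 0.19 (edgeR adjusted p = 0.035), and that of Rpl22 by -0.37 ± 0.11 (adjusted p = 0.0462). Neither was called without 33R, at -0.41 and -0.23 (adjusted p = 0.1 and 0.129). Against control IgG, where the ratio was called, neither CPM was, at -0.58 ± 0.18 for Rpl22l1 and -0.29 ± 0.1 for Rpl22 (edgeR adjusted p = 0.051 and 0.0714).

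Rps27l, a paralog of Rps27 known as a p53 target, changed its share the other way. It made up 4.5, 4.76, 4.17, 4.73 and 4.45% of the pair in control IgG tumors, 6.11, 5.57, 5.74, 6.12 and 5.43% in responders and 4.28, 4.97, 5.23 and 5.12% in non-responders. All responders were above all other tumors. The log2 ratio was higher by 0.38 against control IgG and by 0.26 against non-responders (exact permutation tests, adjusted p = 0.0476 for both). Its own CPM was not called, with -0.09 ± 0.15 against control IgG, while that of Rps27 was lower by -0.48 ± 0.14 (edgeR adjusted p = 0.737 and 0.0372).

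For Rpl7l1, a relative of Rpl7 linked to ribosome assembly, the share was between 2.63 and 2.93% with control IgG, between 3.13 and 4.11% in responders and between 2.72 and 3.11% in the remaining tumors. Responders were above the others, with 26R the highest. The log2 ratio differed by 0.33 and 0.23 (exact permutation tests, adjusted p = 0.0476 for both), where Rpl7 was called lower and Rpl7l1 was not called, at -0.21 ± 0.13 and -0.33 ± 0.13. Rpl36al held 21.4 to 27.5% and Rpl39l 10.2 to 17.1% of their pairs over the 14 tumors, and neither ratio was called. For both, 33R was the highest tumor.

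Rpl3l, known from heart and skeletal muscle, was low everywhere. Its TPM was 0.22, 4.31, 0.39, 0.29 and 0.3 in the control IgG tumors, 1.08, 0.59, 0.06, 1.44 and 0.15 in responders, and 0.18, 0.45, 1.2 and 2.03 in the non-responders 29L, 32R, 33L and 33R. Its highest tumors, 14R, 33R, 30R, 33L and 24L, came from all 3 groups. The summed CPM of 10 skeletal muscle markers, led by 14R at 1410 and 33R at 833, was 468 in 30R, 470 in 24L and 244 in 33L, and 28.1 in 30L, where Rpl3l was lowest. It was also 374 in 26R and 260 in 16R, above 33L, where Rpl3l was at 0.59 and 0.39 TPM. The part of muscle RNA in the level of Rpl3l was not tested. Rps4l, set beside Rps4x, is annotated as a transcribed pseudogene. It was at most 0.209% of its pair, and its ratio was higher by 1.1 in responders and by 0.77 in non-responders than in control IgG tumors (exact permutation tests, adjusted p = 0.0476 for both).

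**Figure D5:**
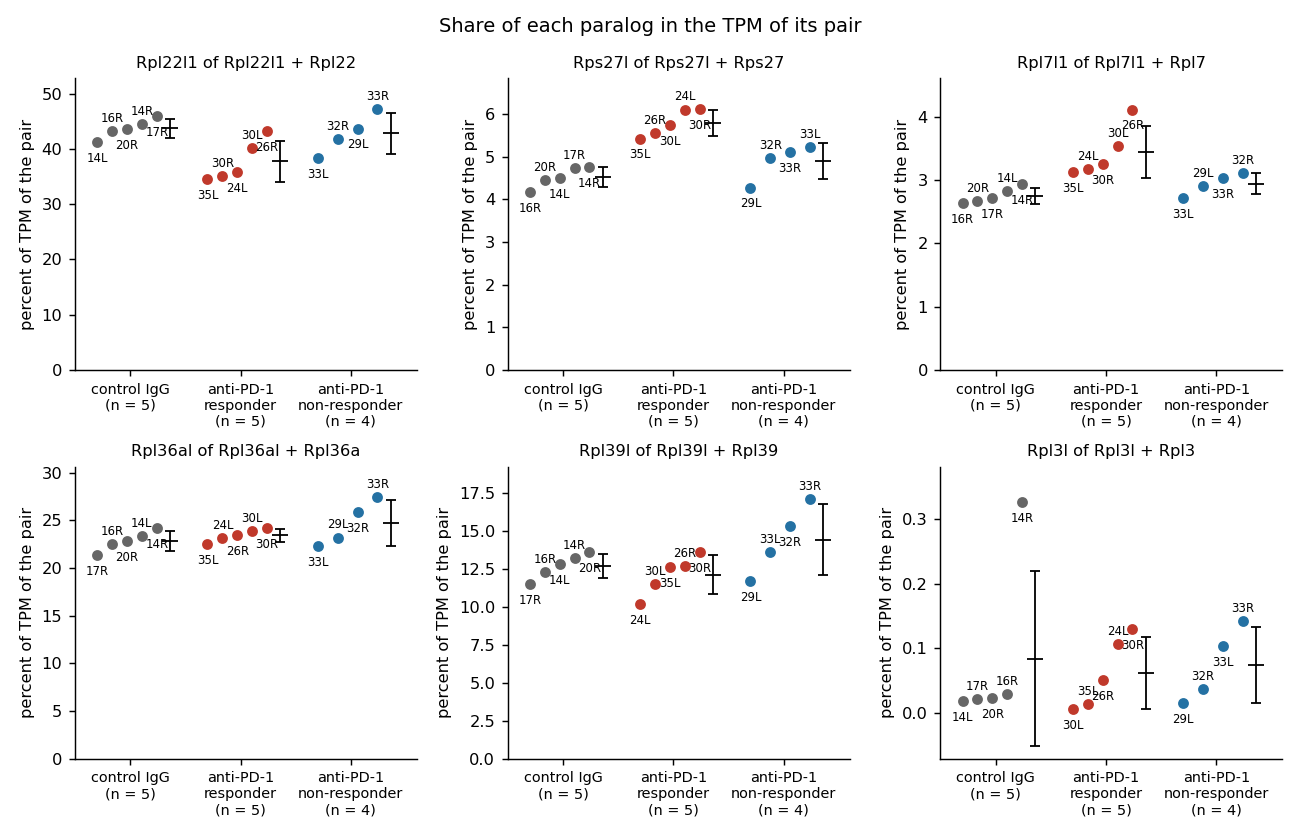
Share of 6 paralogs in the summed TPM of the paralog and its canonical gene, in percent, per tumor, with the mean ± SD of each group as a bar. The responders 24L, 30R and 35L are the lowest tumors for Rpl22l1, all 5 responders are the highest for Rps27l and Rpl7l1, and 14R stands alone for Rpl3l at 0.327%.

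Other mRNAs with a TOP motif, mostly translation factors, were compared from a separate list. Of 19 tested, 7 were lower in responders than in non-responders and 8 than in control IgG tumors, 0 were higher, and all 19 estimates were below zero in both. Of all genes, 4.82% and 5.3% were called lower. The medians of the list were -0.38 and -0.32. Without 33R, 2 and 13 were called lower (background 1.81% and 9.41%), with medians of -0.22 and -0.32. The elongation factor subunits Eef1g and Eef1b2 led, with -0.74 ± 0.13 and -0.87 ± 0.17 against non-responders (edgeR adjusted p = 0.00793 and 0.0114), and Eef1g with -0.75 ± 0.13 against control IgG (adjusted p = 0.00214). Eef1a1, which carries tRNA to the ribosome, was at -0.61 ± 0.15, and Rack1, a scaffold on the small subunit, at -0.8 ± 0.2 against non-responders (adjusted p = 0.0233 and 0.0256). These last 2 were not called without 33R, at -0.41 and -0.49 (adjusted p = 0.0604 and 0.0726).

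Of 16 regulators, 2 were higher and 2 lower in responders than in non-responders, with a median of 0.06, while 5.08% of all genes were called higher and 4.82% lower. Tsc1, an inhibitor of mTOR signaling, was higher by 0.49 ± 0.14, and the kinase Rps6ka1 by 0.27 ± 0.07 (edgeR adjusted p = 0.0383 and 0.0295). Mdm2 and the translation repressor Eif4ebp1 were lower by -0.41 ± 0.09 and -0.48 ± 0.12 (adjusted p = 0.014 and 0.0284). Without 33R, Tsc1 and Mdm2 kept their calls (adjusted p = 0.041 and 0.0367), and Rps6ka1, at 0.25, and Eif4ebp1, at -0.38, did not (adjusted p = 0.0545 and 0.0848). Against control IgG, 1 was higher (background 7.88%) and 2 were lower (background 5.3%), the latter being Mdm2 at -0.45 ± 0.08 and Myc at -0.61 ± 0.12 (adjusted p = 0.00333 and 0.00563). No regulator or TOP mRNA was called between non-responders and control IgG tumors.

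Markers of other cells were compared over the same groups. The 10 pan-leukocyte markers summed to 904 to 1130 CPM in responders, 735 to 832 in control IgG tumors and 531 to 873 in non-responders, with 33R the lowest of all, and 5 of 9 tested were higher in responders in each comparison, where 5.08% of all genes were called higher against non-responders and 7.88% against control IgG. Without 33R these counts were again 5 and 5 (background 3.16% and 11.3%). The 8 fibroblast markers summed to 2830 to 4710, 2380 to 3060 and 2290 to 4250 CPM, with 1 called higher against non-responders (0 without 33R), and 2 higher and 1 lower against control IgG. The 5 red cell markers, at 59.3 to 283, 71.4 to 1910 and 376 to 2070 CPM, were lower in responders in 5 of 5 cases against non-responders (1 of 5 without 33R) and 3 of 5 against control IgG (background 4.82% and 5.3%). The colon and epithelial markers summed to 314 to 450, 252 to 370 and 235 to 511 CPM, most of it Krt20, at a mean of 381, 276 and 328 CPM. Of the 7 tested, 0 were called against non-responders and 1 against control IgG, Cdx2 at -1.97 ± 0.55 (edgeR adjusted p = 0.0303). Cdx2 was low in every group, at a mean of 0.148 CPM in responders, 0.57 in control IgG tumors and 0.509 in non-responders. Against control IgG 6 of the 7 estimates were below zero, with a median of -0.5, and Krt20 was at 0.47 ± 0.2 (adjusted p = 0.143). No skeletal muscle marker was called, at 28.1 to 470, 141 to 1410 and 103 to 833 CPM, nor any epidermis marker, at 11.2 to 968, 7.79 to 700 and 134 to 292 CPM. No marker was at 0 throughout a group, and the part of each cell type in the ribosomal protein differences was not tested.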

How the data were processed

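Gene tables of 14 tumors were used. With STAR (mm10) and RSEM the authors made expected counts, TPM and FPKM per gene and tumor, deposited per tumor. The annotation behind the gene IDs is not given in the sources used here. Symbols came from a table of gene names for 53620 of 53801 genes, and positions from GENCODE for mm10. Here expected counts were rounded, filtered (filterByExpr, 16287 genes), scaled by TMM and tested with edgeR 4.0.16 in R 4.3.3 in 1 fit over the 3 groups, with Benjamini-Hochberg adjustment over all genes. DESeq2 1.42.0, the authors' tool, and limma 3.58.1 were alternatives. Ratios of paralogs used exact permutation tests in scipy, for paralogs at 1 TPM or more in at least 4 tumors. Named genes were those of role lists, the 5 of smallest p and the 5 of largest fold per comparison. Members and lists were chosen with earlier results of these data known. Tumors of 1 mouse are not independent, and replicate pairs differed beyond counting error (chi-square per degree of freedom of at least 20.6). FPKM was not used. Fits were tested on simulated data.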

Additional observations from a re-analysis of the deposited data

Results flagged for a closer look

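In 39 groups of 4 or 5 summary values, 5 had a tumor set apart from the rest of its group by Dixon's test at the 95% level, where chance flags about 1 in 20 groups. In 4 of them it was 33R among the non-responders. It was the highest for the share of the 85 genes in counts, at 13.79%, and in TPM, at 31.67%. It was the lowest for the large minus small subunit difference, at -0.05046 on log2 CPM and -0.3031 on log2 TPM. The fifth was the Rpl3l share in the control IgG tumor 14R, at 0.327%, where the skeletal muscle markers were also highest. Over the log2 CPM of single members, 14 of 252 groups had a tumor set apart, 10 of them by 33R.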

How the results depend on the processing

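No member was called higher in responders under any alternative tried. Between responders and non-responders, where 62 members were called, the count was 8 with 1 tumor per mouse, 22 with no filter and 16 with a length offset. It was 20 on log2(TPM + 1), 3 with only the 2 groups in the fit and 0 in the edgeR fit at an adjusted p under 0.01. Other settings gave 77 (DESeq2), 44 (limma-voom), 78 (limma-voom with mouse as a random effect), 60 (DESeq2 size factors), 49 (upper quartile scaling) and 50 (TMM without the members). With DESeq2 size factors 770 of all 16287 genes were called lower. Leaving out 1 tumor gave 6 (without 24L) to 74 (without 33L). It gave 7 without 30R, 12 without 32R or 33R, 30 without 35L, 34 without 17R, 38 without 26R and 39 without 20R. Of all 16287 genes, 226 were called lower without 24L and 1038 without 33L. Added after seeing the data, leaving out 33R gave 2 with the length offset and 5 on log2(TPM + 1). Of all 16287 genes, 304 and 100 were called lower in these 2 fits. Between responders and control IgG (24 called), the count was 46 with DESeq2, 49 in limma-voom with mouse as a random effect, 45 with 1 tumor per mouse, 14 with upper quartile scaling, 9 with no filter, 67 with only 2 groups, 6 at an adjusted p under 0.01, and 44 on log2(TPM + 1) without 33R. Leaving out 1 tumor gave 7 (without 20R or 24L) to 72 (without 33R). It gave 8 without 30R, 9 without 14R, 11 without 16R, 12 without 26R, 13 without 35L, 14 without 17R and 16 without 32R. Of all 16287 genes, 418, 443 and 1533 were called lower without 20R, 24L and 33R. In the same comparison DESeq2 called 1363 of all genes lower and upper quartile scaling 770. The paralog pairs called were 0 on expected counts, 0 with mice averaged and 0 to 0 without 1 tumor. The subunit means moved by more than their spread on TPM, to -0.241 (large) between responders and non-responders and to -0.234 (large) and -0.269 (small) against control IgG. Of 1539 refits of the 57 named results past the threshold, 964 kept the call, 575 lost it and 0 turned. Estimates that were not called turned for Rpl39 against non-responders, to 0.02 with 1 tumor per mouse, 0.06 with the length offset or log2(TPM + 1), and 0.08 for either without 33R. Rpl3l turned against non-responders to 0.3 without 33R (its range without 1 tumor was -1.23 to 0.3), 0.28 with the length offset and 0.02 on log2(TPM + 1) without 33R, and against control IgG to 0.59 with 1 tumor per mouse and 0.94 without 14R (range -1.45 to 0.94). Rps27l turned to 0.1 and 0.05 against non-responders with these 2 scales without 33R, and against control IgG to 0 with 1 tumor per mouse, 0.06 with the length offset and 0.05 on log2(TPM + 1), with or without 33R. The cause was not tested.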
